A study of Homo sapiens with 12 samples.

Results

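The S100 genes encode small EF-hand proteins that bind calcium and usually act as dimers, changing shape when calcium rises and then gripping a partner such as an annexin, a myosin heavy chain or a membrane receptor. Most of them lie side by side on the long arm of chromosome 1, and several are released from cells and act on receptors such as RAGE, which AGER encodes. In colon and other epithelia, different members mark different states of the cells, and S100A4, S100P and S100A6 have long been studied in tumours. The members followed here were S100A2, S100A3, S100A4, S100A6, S100A10, S100A11, S100A13, S100A14, S100A16 and S100P. They were listed by name with earlier results of these data known, and are not the whole family. They are 10 of the 60617 genes in the files, and all 10 were among the 15692 genes that passed the filter on low counts.

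The libraries were made from total RNA of HCT 116p53-/-, a human colorectal cancer line in which p53 is deleted, and of a stable sub-line of them whose genotype the labels give as P53-/-; RPL3 KO. RPL3 encodes the ribosomal protein uL3, and the study describes the sub-line as stably silenced for uL3, so that the 4 groups share the p53 deletion and no group has intact p53. Both lines were cultured with Act D (actinomycin D), which at low dose inhibits transcription of ribosomal RNA, at 5 nM for 24 h or with vehicle, with 3 libraries per group. The labels call the 3 libraries biological replicates, without saying whether they came from separate cultures on separate days, and the p-values measure the spread between these libraries only. In such bulk libraries a lower level in every cell and fewer expressing cells cannot be told apart.

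Library totals lay between 10087925 and 21138886 expected counts. Levels are given as CPM, a gene's counts relative to those of the whole library after TMM scaling, and unless stated otherwise each adjusted p comes from the quasi-likelihood test of edgeR, adjusted over the 15692 genes by the Benjamini-Hochberg method, with 0.05 as the threshold. The RNA level of RPL3 did not bear out the genotype label. It was at 1138 CPM in HCT 116p53-/- cells with vehicle and at 1243 CPM in the RPL3 KO-labelled libraries. The difference on the log2 scale was 0.13 (adjusted p = 0.155) with vehicle and 0.12 (adjusted p = 0.187) with Act D. With library size alone as the scaling the value with vehicle was -0.11 (adjusted p = 0.299). These libraries measure RNA and not the uL3 protein, and an RNA level alone cannot settle the genotype. The sub-line is therefore called by its label throughout, and every difference between the lines compares these labelled libraries. Of the 10 epithelial and colon markers, 6 were tested, and with vehicle 5 were lower in the RPL3 KO-labelled libraries and 1 was higher. Of all genes tested 36.2% were called lower and 35.1% higher. CDH1, the adhesion protein E-cadherin, was at 66.8 against 0.44 CPM and the intestinal factor CDX2 at 14.8 against 0.18 CPM. KRT20 was at 0.90 against 0.04 CPM, EPCAM at 153 against 35.5 CPM and KRT8 at 1116.5 against 777 CPM. The higher marker was KRT18, at 605 against 840 CPM (log2 fold change 0.47, adjusted p = 2.28e-05). VIL1, CDX1, CDH17 and GPA33 were at or near 0 in both lines. The summed level of the list was between 1916 and 2030.4 CPM in HCT 116p53-/- cells and between 1556 and 1746 CPM in the RPL3 KO-labelled libraries with vehicle, carried by KRT8 and KRT18. Of the fibroblast markers 3 of 6 were tested, and 2 were higher and 1 was lower in the RPL3 KO-labelled libraries. With vehicle LUM was at 0 counts in HCT 116p53-/- cells and at 10.5 CPM in the other line, PDGFRB at 0.41 and 1.72 CPM and COL1A1 at 7.5 and 4.14 CPM, with a summed level of the list of 7.3 to 9.48 against 15.2 to 18.1 CPM. The 5 leukocyte markers summed to at most 1.01 CPM and the 4 endothelial markers to at most 2.09 CPM in any library. What part such differences between the lines have in the S100 values was not tested.

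With vehicle, 9 of the 10 S100 genes differed between the lines, of which 7 were higher in the RPL3 KO-labelled libraries and 2 were lower, against 35.1% of all genes tested that were called higher and 36.2% that were called lower. The extremes were S100P, at means of 0.29 against 42.4 CPM in the RPL3 KO-labelled libraries, and S100A14, at means of 119 against 1.45 CPM there. With Act D the same 9 genes were called, each in the same direction, again 7 higher and 2 lower, where 35.1% and 35.3% of all genes were called. The groups did not overlap for any of the 9 with either treatment, which was so upward for 35.5% of all genes and downward for 37% with vehicle, and for 36.5% and 37.6% with Act D. Since 71.3% of all genes were called in one direction or the other with vehicle and 70.4% with Act D, a difference between these lines was common in general. The median log2 fold change of the 10 genes was 1.62 with vehicle and 1.49 with Act D, beside -0.02 for all genes in both cases.

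The 250 bases before the start sites of 4 members are shown because these genes span the range of behaviour: the gene that fell most, the gene that rose most, the gene with the clearest response to Act D, and the gene with the highest level per length in every group. All are 5′ to 3′ on the gene's strand, from RefSeq on GRCh38.p14, with each CG dinucleotide in capitals.
S100A14, chr1:153616326-153616575, minus strand: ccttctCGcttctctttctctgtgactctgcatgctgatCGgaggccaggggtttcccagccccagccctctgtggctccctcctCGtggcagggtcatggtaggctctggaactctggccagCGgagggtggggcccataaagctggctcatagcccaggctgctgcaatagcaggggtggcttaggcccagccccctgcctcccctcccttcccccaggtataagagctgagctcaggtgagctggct
S100P, chr4:6693628-6693877, plus strand: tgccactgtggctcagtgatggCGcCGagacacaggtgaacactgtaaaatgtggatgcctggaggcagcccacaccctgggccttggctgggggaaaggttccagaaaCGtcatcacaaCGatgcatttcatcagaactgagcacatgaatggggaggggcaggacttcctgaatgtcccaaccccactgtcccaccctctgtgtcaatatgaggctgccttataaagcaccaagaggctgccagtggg
S100A11, chr1:152037005-152037254, minus strand: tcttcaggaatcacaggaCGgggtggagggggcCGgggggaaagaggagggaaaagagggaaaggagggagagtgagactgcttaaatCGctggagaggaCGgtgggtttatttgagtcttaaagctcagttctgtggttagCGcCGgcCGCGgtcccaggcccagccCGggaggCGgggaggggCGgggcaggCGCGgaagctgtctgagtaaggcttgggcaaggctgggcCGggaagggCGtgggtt
S100A6, chr1:153535992-153536241, minus strand: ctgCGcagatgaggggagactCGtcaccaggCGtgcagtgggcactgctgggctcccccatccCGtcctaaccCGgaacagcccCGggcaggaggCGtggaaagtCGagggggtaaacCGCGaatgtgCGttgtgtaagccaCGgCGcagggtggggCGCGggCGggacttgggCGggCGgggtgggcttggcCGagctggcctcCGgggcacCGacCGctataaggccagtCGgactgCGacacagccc
The windows of S100A14 and S100P, the pair that separated the lines most, each hold 4 CG dinucleotides, and those of S100A11 and S100A6 hold 15 and 24. The median of all 35114 promoter windows was 11 with quartiles of 3 and 23. Among the other members, S100A16 holds 1, S100A2 and S100A3 hold 4 each, S100A4 holds 7, S100A13 holds 10 and S100A10 holds 24. A low count was therefore not particular to S100A14 and S100P. The letters TATAA occur 29 bases before the start of S100A14, 28 before that of S100P and 30 before that of S100A6, and not in the window of S100A11. All motifs were searched on both strands, and TATAA was found in 5 of the 10 members' windows, those of S100A4 and S100A13 included, and in 18.9% of all windows. GGGCGG, the GC box, was found in the windows of S100A3, S100A6, S100A10 and S100A11 and in 42.6% of all windows, TGANTCA, the AP-1 motif, in those of S100A2 and S100A3 and in 6.57% of all, and CACGTG, the E-box, in none of the 10 and in 6.35% of all. These are matches of letters and no binding was measured. The windows used for S100A2 and S100A13 start 2046 and 675 bases away from the start of the gene's leading transcript. That is the transcript with the largest share of the gene's level per length in the 1 library deposited per transcript. The sequences of these windows are not shown.

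On hg38, 9 of the members lie on chromosome 1 and S100P alone lies on the plus strand of chromosome 4, from 6693878 to 6697170. All 9 on chromosome 1 are on the minus strand, and 7 of them, from S100A6 to S100A13, fall within 96.8 kb. The gene that fell furthest and genes that rose are close neighbours there. S100A14 (153614255 to 153616986) is 1109 bases from S100A16 (153606886 to 153613145) and 1800 bases from S100A13 (153618787 to 153631360), and the log2 fold changes of the 3 with vehicle were -6.36, -0.33 and 1.39. S100A6 (153534599 to 153536244), at -0.08, is 7368 bases from S100A4 (153543613 to 153550136), at 1.83. S100A3 (153547329 to 153549258) lies inside the span of S100A4 and shares no exon base with it. S100A2 (153561108 to 153567890) stood at 3.87, and S100A10 (151982915 to 151993859) and S100A11 (152032506 to 152047907) lie 1541 kb and 1486691 bases before S100A6, at 1.73 and 1.51. S100A13 shares 235 exon bases with S100A1 on the opposite strand and 536 with a lncRNA, which had at most 52 and 45 counts in any library, and the TruSeq RNA kit that the labels name does not mark strand.

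**Figure D1:**
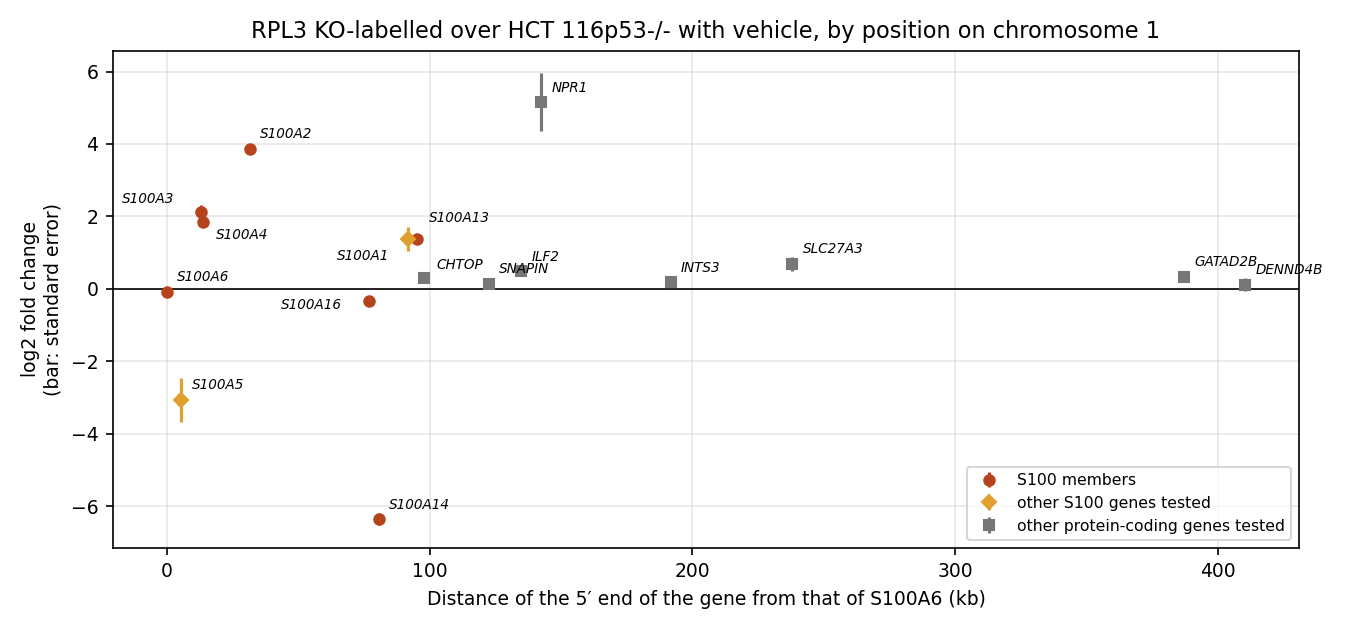
Log2 fold change of the RPL3 KO-labelled libraries over HCT 116p53-/- cells with vehicle (vertical axis, bars are standard errors) against the distance of the gene's 5′ end from that of S100A6 in kb, for tested protein-coding genes around the cluster. S100A14, at -6.36, stands between S100A16, at -0.33, and S100A13, at 1.39; the value of NPR1 rests on 1 count in the 3 HCT 116p53-/- libraries.

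S100P, first found in placenta, binds ezrin and IQGAP1 inside cells and RAGE outside them. It was barely detected in HCT 116p53-/- cells, with 2, 8 and 3 counts in the 3 vehicle libraries and 4, 5 and 7 with Act D. In the RPL3 KO-labelled libraries it reached 39.4, 50.7 and 37.1 CPM with vehicle and 39.9, 28.4 and 37.0 CPM with Act D. Every library of that line thus lay far above every HCT 116p53-/- library, the highest of which was at 0.56 CPM. On the log2 scale the lines differed by 7.20 (SE 0.28, adjusted p = 1.7e-13) with vehicle and 6.54 (SE 0.28, adjusted p = 7.11e-13) with Act D. The few counts in HCT 116p53-/- cells leave the size of these folds less certain than their direction.

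S100A2, a nuclear S100 protein of squamous and basal epithelia, was the next largest rise. It was at 19.1, 19.1 and 17.3 CPM in HCT 116p53-/- cells with vehicle and at 19.9, 18.6 and 18.1 CPM with Act D. In the RPL3 KO-labelled libraries it was at 266, 288 and 255 CPM with vehicle and at 241, 231 and 257 CPM with Act D. The 6 HCT 116p53-/- libraries kept within 3 CPM of each other, whereas the other line was 14.6-fold higher with vehicle (log2 fold change 3.87, SE 0.09, adjusted p = 3.88e-16) and 12.9-fold higher with Act D (3.68, SE 0.09, adjusted p = 9.94e-16). At least 3 on the log2 scale and called higher with vehicle were S100P and S100A2, 2 of 10 members, and 5.37% of all genes; S100A14 was at least as far down, as were 5.72% of all genes.

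S100A3, a cysteine-rich zinc-binding member best known from the hair cuticle, was ninth of the 10 in TPM, a level per transcript length, in each group. It was at 2.4, 2.75 and 1.99 CPM in HCT 116p53-/- cells and at 10.7, 11.9 and 8.71 CPM in the RPL3 KO-labelled libraries with vehicle. With Act D the values were 2.99, 3.11 and 3.06 CPM against 10.2, 12.9 and 14.1 CPM. The lines did not overlap under either treatment, with log2 fold changes of 2.13 (SE 0.19, adjusted p = 1.28e-08) and 2.01 (SE 0.19, adjusted p = 2.9e-08).

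S100A4, or metastasin, binds the heavy chain of non-muscle myosin IIA and is widely used as a marker of mesenchymal and motile cells. It was at 65.7, 59.3 and 64.5 CPM in HCT 116p53-/- cells with vehicle and at 59.0, 58.8 and 61.3 CPM with Act D. The RPL3 KO-labelled libraries held 195, 260.4 and 219.8 CPM with vehicle and 240.3, 201 and 221 CPM with Act D. The rise was 3.56-fold with vehicle (log2 fold change 1.83, SE 0.10, adjusted p = 2.3e-11) and 3.70-fold with Act D (1.89, SE 0.10, adjusted p = 2.11e-11), although the RPL3 KO-labelled libraries with vehicle were spread more widely (SD 33.2 CPM) than the others.

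S100A10, the partner of annexin A2 at the plasma membrane, has lost calcium binding and is held in its active form. It was at 68.9, 55.2 and 66.3 CPM in HCT 116p53-/- cells with vehicle, against 212, 216 and 205 CPM in the RPL3 KO-labelled libraries. With Act D it was at 72.3, 78.8 and 79.3 CPM against 230.2, 232 and 257 CPM. The lowest RPL3 KO-labelled library, at 205 CPM, was far above the highest of the other line, at 79.3 CPM, and the log2 fold changes were 1.73 (SE 0.09, adjusted p = 9.24e-12) with vehicle and 1.64 (SE 0.09, adjusted p = 2.26e-11) with Act D.

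S100A11, which binds annexin A1, differed by less. Its values were 91.8, 93.7 and 83.0 CPM in HCT 116p53-/- cells and 210.4, 279 and 273 CPM in the RPL3 KO-labelled libraries with vehicle. They were 132, 122 and 114 CPM against 312, 294 and 330.3 CPM with Act D. The log2 fold changes were 1.51 (SE 0.10, adjusted p = 4.32e-10) and 1.34 (SE 0.10, adjusted p = 2.11e-09). S100A13, which takes part in the unconventional release of the growth factor FGF1, was at 29.8, 29.5 and 23.8 CPM in HCT 116p53-/- cells and at 75.7, 75.1 and 66.3 CPM in the RPL3 KO-labelled libraries with vehicle, and at 35.8, 33.8 and 39.8 against 69.0, 78.1 and 74.6 CPM with Act D. It was the smallest of the 7 rises, at 1.39 (SE 0.10, adjusted p = 1.2e-09) with vehicle and 1.02 (SE 0.10, adjusted p = 8.19e-08) with Act D.

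S100A14, a member typical of epithelial cells, went the other way. It was at 134, 129 and 93.5 CPM in HCT 116p53-/- cells with vehicle and at 127, 113 and 104 CPM with Act D. In the RPL3 KO-labelled libraries it was at 1.53, 1.35 and 1.49 CPM with vehicle and at 2.25, 2.06 and 2.20 CPM with Act D, from between 18 and 31 counts per library. The fall on the log2 scale was -6.36 (SE 0.17, adjusted p = 1.81e-15) with vehicle and -5.71 (SE 0.17, adjusted p = 9.21e-15) with Act D. What remained was between 1.14% and 1.28% of the mean HCT 116p53-/- level with vehicle and between 1.79% and 1.97% with Act D. For comparison, 29 genes typical of HCT 116p53-/- cells and 35 typical of the RPL3 KO-labelled libraries were picked. By the rule, each was high in its own line with either treatment and nearly silent in the other line with vehicle. The vehicle percentages were thus low by construction, and S100A14 itself met the rule for the 29. The 29 stood in the RPL3 KO-labelled libraries at medians of 0.588% to 0.707% of their HCT 116p53-/- level with vehicle and 0.224% to 1.34% with Act D. The 35 stood in HCT 116p53-/- cells at 0.361% to 0.566% and 0.950% to 1.07%. Whether the low counts of S100A14, and those of S100P in the other line, came from the cells of that line or from RNA or reads of the other was not tested.

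S100A16, a broadly expressed member that can associate with S100A14, fell slightly. It was at 103, 89.7 and 85.1 CPM in HCT 116p53-/- cells and at 69.9, 76.4 and 74.3 CPM in the RPL3 KO-labelled libraries with vehicle. With Act D the values were 96.6, 86.4 and 81.9 CPM against 68.1, 62.6 and 72.7 CPM. The groups were next to each other without overlapping, and the change was -0.33 (SE 0.09, adjusted p = 0.00395) with vehicle and -0.38 (SE 0.10, adjusted p = 0.00165) with Act D. S100A6, or calcyclin, a partner of the ubiquitin ligase adaptor CACYBP, was the 1 member that did not pass. It was at 618, 584 and 546 CPM in HCT 116p53-/- cells and at 481, 632 and 543 CPM in the RPL3 KO-labelled libraries with vehicle, with ranges that overlapped, and at 673, 579.7 and 646 against 611, 607 and 669.7 CPM with Act D. Its log2 fold change was -0.08 (SE 0.10, adjusted p = 0.488) with vehicle and -0.01 (SE 0.10, adjusted p = 0.94) with Act D. This depends on the scaling: by library size alone it was called lower, at -0.32 (adjusted p = 0.00852) and -0.26 (adjusted p = 0.0311), where the median of all genes also moved to -0.26 in both comparisons. The other 9 genes kept their direction and call between the lines under that scaling.

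**Figure D2:**
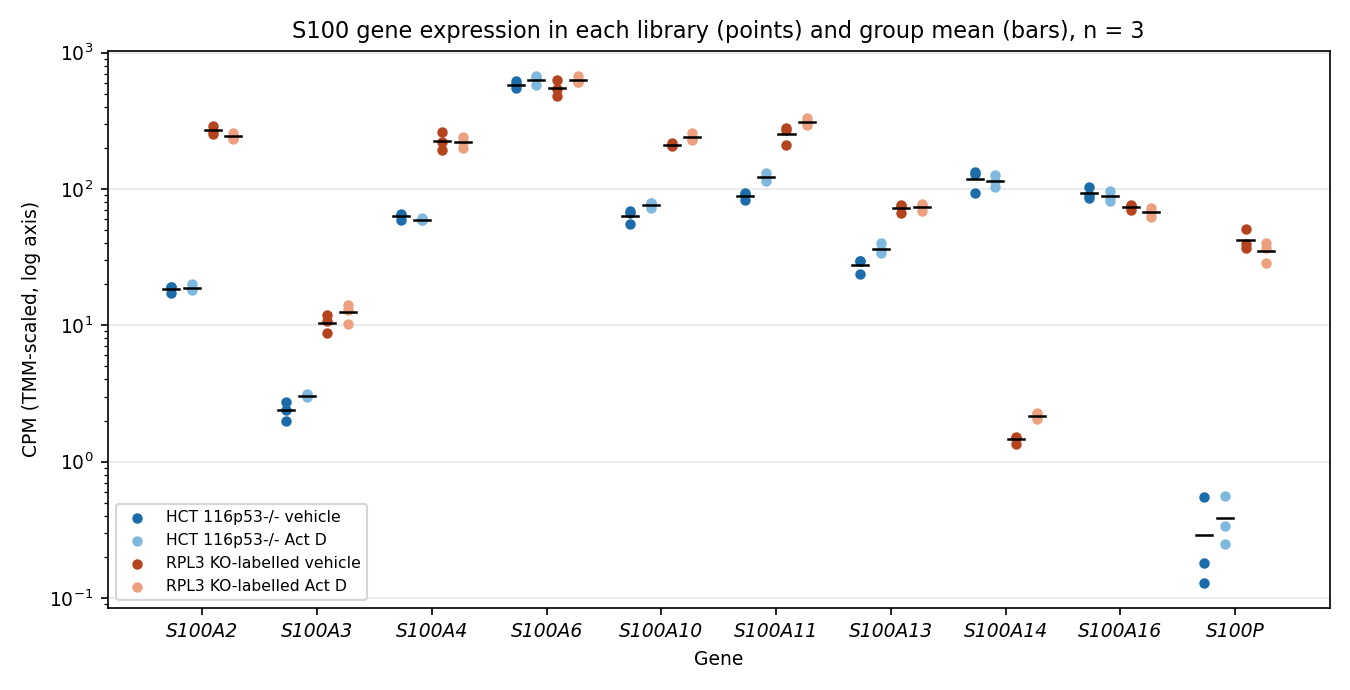
TMM-scaled CPM of the 10 S100 genes on a log axis, with 1 point per library, 3 libraries per group, and a black bar at the group mean. S100P and S100A14 separate the lines most and in opposite directions, from means of 0.29 and 42.4 CPM and of 119 and 1.45 CPM with vehicle, while the 4 groups of S100A6 overlap.

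Levels of different genes within a library were compared as the deposited TPM, which divides by transcript length. S100A6 was first and S100A11 second in each of the 4 groups. In HCT 116p53-/- cells with vehicle S100A6 was at 1595 ± 184 TPM (SD, n = 3) and made up 71.2% of the summed TPM of the 10 genes, and S100A11 was at 168 TPM. S100A4, S100A14, S100A10 and S100A16 followed at 128, 101, 95.5 and 70.4 TPM, with ranges that overlapped from each to the next. After them came S100A13, S100A2, S100A3 and S100P, which was last at 1.06 TPM. In the RPL3 KO-labelled libraries with vehicle S100A6 was at 1058 ± 29.5 TPM (SD, n = 3) and its share was 42.8%. S100A11, S100A4 and S100A2 came next at 335, 325 and 313 TPM and overlapped, and S100A10 was at 227 TPM. S100P had moved to the seventh place at 75.7 TPM, with a range that overlapped that of S100A13 before it. S100A14 was last at 0.85 TPM. The shares of S100A6 with Act D were 70.3% and 45.5%. The RNAs of the RN7SL and RN7SK genes took between 31.9% and 42.9% of all TPM in a library, and levels in TPM are therefore compared within a library only, and between the lines as shares. The summed TMM-scaled CPM of the 10 genes ran from 981 to 1133 in HCT 116p53-/- cells with vehicle, against 1561 to 1891 in the RPL3 KO-labelled libraries, and from 1095 to 1218 against 1749 to 1936 with Act D, without overlap under either treatment. The sums in TPM, subject to the limit above, did overlap between the lines. With vehicle they ran from 2076 to 2536 against 2407 to 2526. With Act D they ran from 2238 to 2568 against 2499 to 2727. The lack of overlap thus depends on the measure.

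**Figure D3:**
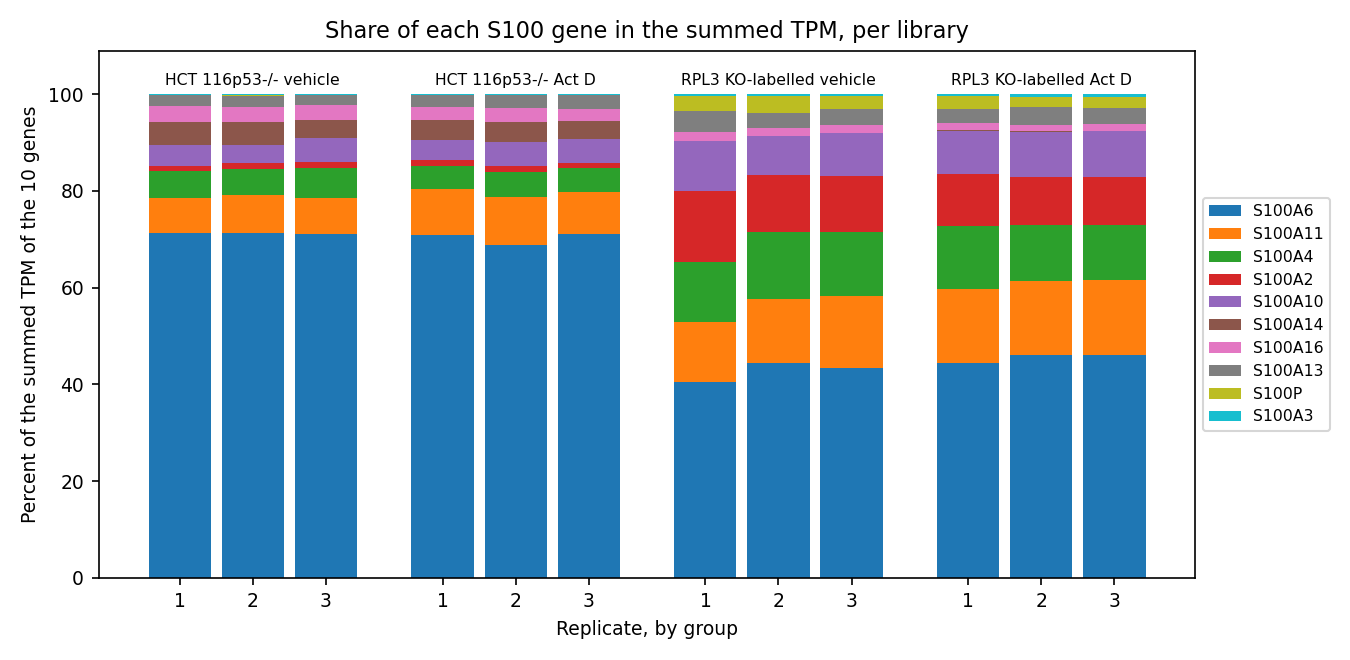
Share of each S100 gene, in percent, in the summed deposited TPM of the 10 genes, with 1 stacked bar per library. S100A6 holds a mean of 71.2% in HCT 116p53-/- cells with vehicle and 42.8% in the RPL3 KO-labelled libraries, where S100A11, S100A4, S100A2, S100A10 and S100P take more room.

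The responses to Act D were small beside the differences between the lines. In HCT 116p53-/- cells 3 of the 10 genes rose, S100A11, S100A13 and S100A10, and none fell, where 7.59% of all genes were called higher and 11.1% lower, 18.7% together. In the RPL3 KO-labelled libraries none of the 10 passed, where 3.51% of all genes were called higher and 8.4% lower, 11.9% together. There, 3 of 10 had an unadjusted p under 0.05, beside 25.4% of all genes, and DESeq2 called 1, S100A11. The median log2 fold change of the 10 genes was 0.20 in HCT 116p53-/- cells and 0.11 in the RPL3 KO-labelled libraries, beside 0.02 and 0.03 for all genes.

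S100A11 had the firmest response. It was at 83.0 to 93.7 CPM with vehicle and at 114 to 132 CPM with Act D in HCT 116p53-/- cells, with no overlap, a log2 fold change of 0.46 (SE 0.10, adjusted p = 0.00454). This call held in all 13 alternative analyses, with adjusted p between 0.000195 and 0.0341. In the RPL3 KO-labelled libraries it was at 210.4 to 279 CPM with vehicle and at 294 to 330.3 CPM with Act D, also without overlap, a log2 fold change of 0.30 (SE 0.10, adjusted p = 0.0659). That value passed the threshold in 3 of 13 alternatives, with upper-quartile scaling (adjusted p = 0.0258), with DESeq2 (adjusted p = 0.0316) and without replicate 2 of the RPL3 KO-labelled libraries with vehicle (adjusted p = 0.0433).

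S100A13 rose in HCT 116p53-/- cells from 23.8 to 29.8 CPM to 33.8 to 39.8 CPM with a log2 fold change of 0.40 (SE 0.10, adjusted p = 0.0134), and stood at 0.03 (SE 0.10, adjusted p = 0.895) in the RPL3 KO-labelled libraries. The first value lost its call in 3 of 13 alternatives, with scaling by library size alone (adjusted p = 0.067) and without replicate 3 of either treatment (adjusted p = 0.0799 and 0.0676). S100A10 rose by 0.27 (SE 0.09, adjusted p = 0.0414) in HCT 116p53-/- cells, a call that was lost in 8 of 13 alternatives with adjusted p up to 0.289, among them the leaving out of any 1 library of that line except replicate 1 with vehicle (adjusted p = 0.0588 to 0.209), and its change in the RPL3 KO-labelled libraries was 0.18 (SE 0.09, adjusted p = 0.193). For both genes the Act D libraries lay above the vehicle libraries in HCT 116p53-/- cells without overlap. The libraries of S100A3 did not overlap there either, at 0.36 (SE 0.21, adjusted p = 0.264), which makes 4 of 10 members that lay higher without overlap, beside 18.2% of all genes. In the RPL3 KO-labelled libraries S100A10, S100A11 and S100A14 did so, 3 of 10, beside 12.8% of all genes.

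The remaining members showed no response that passed. S100A14 had the largest fitted value in the RPL3 KO-labelled libraries, 0.59 (SE 0.28, adjusted p = 0.185), from between 18 and 31 counts per library, and was at -0.05 (SE 0.11, adjusted p = 0.812) in HCT 116p53-/- cells, where its counts were high. S100P was at 0.39 (SE 0.61, adjusted p = 0.717) in HCT 116p53-/- cells and at -0.27 (SE 0.16, adjusted p = 0.3) in the RPL3 KO-labelled libraries. S100A6 was at 0.12 (adjusted p = 0.442) and 0.19 (adjusted p = 0.243) and S100A2 at 0.03 (adjusted p = 0.858) and -0.15 (adjusted p = 0.25). S100A4 was at -0.08 (adjusted p = 0.638) and -0.03 (adjusted p = 0.904), and S100A16 at -0.07 (adjusted p = 0.666) and -0.12 (adjusted p = 0.478).

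Whether the response to Act D differed between the lines was tested with the interaction. None of the 10 genes passed, where 6.53% of all genes did, and DESeq2 also called 0. Before adjustment, 2 members had a p under 0.05 in edgeR's test, beside 21.2% of all genes. They were S100A13 (adjusted p = 0.144) and S100A14 (adjusted p = 0.221). The rises of S100A11, S100A13 and S100A10 in HCT 116p53-/- cells were thus not shown to differ from their values in the RPL3 KO-labelled libraries.

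**Figure D4:**
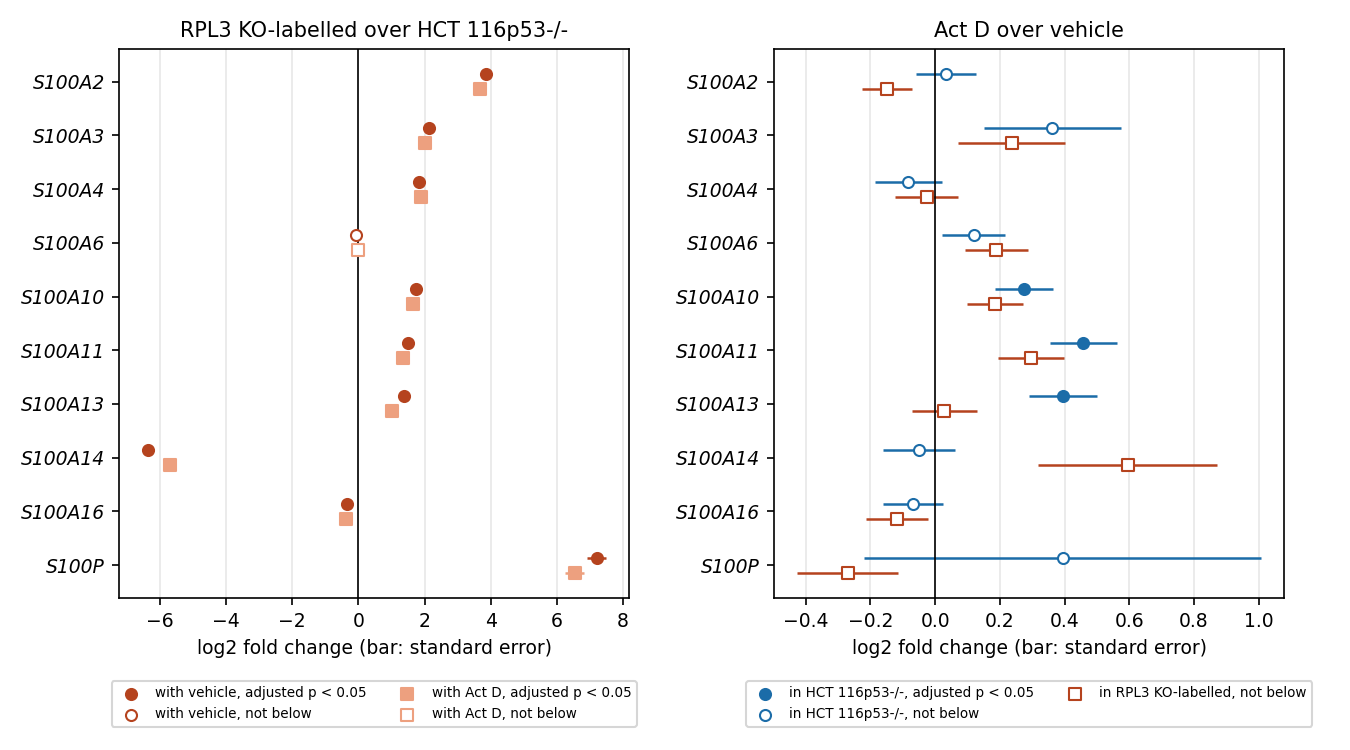
Log2 fold changes of the 10 S100 genes with their standard errors, between the lines (left) and for Act D over vehicle (right), filled where the adjusted p is under 0.05. The axis on the left runs from about S100A14 at -6.36 to S100P at 7.20, and the called values on the right are S100A11 at 0.46, S100A13 at 0.40 and S100A10 at 0.27, all in HCT 116p53-/- cells.

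Other genes of the family were mostly silent. Of 10 further S100 genes only S100A1 and S100A5 had enough counts to be tested, and S100A7, S100A7A, S100A8, S100A9 and S100A12 had none in the vehicle libraries of either line. S100A1, a muscle and heart member, rose from 1.01 to 2.62 CPM with vehicle (log2 fold change 1.37, adjusted p = 0.00139), and its reads cannot be told from those of S100A13 where the pair overlap. S100A5 was at 1.33 and 0.16 CPM (-3.06, adjusted p = 0.000188). None of the 7 genes of the S100-fused family, which includes filaggrin and hornerin, was tested.

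The 4 genes for receptors of S100 proteins all passed the test with vehicle, and 3 of them were higher and 1 was lower in the RPL3 KO-labelled libraries. Of all genes tested 71.3% passed there, 35.1% higher and 36.2% lower. TLR4, a receptor of innate immunity, was at 0.17 and 40.9 CPM (log2 fold change 7.82), the scavenger receptor CD36 at 0.15 and 3.15 CPM (4.31), and BSG, or basigin, at 314 and 608 CPM (0.95). AGER, the gene for RAGE, was low and lower, at 1.25 and 0.43 CPM (-1.54, adjusted p = 0.00527). None of the 4 passed the test for Act D in either line.

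Of 18 genes for binding partners 15 were tested, and with vehicle 7 were higher and 3 were lower in the RPL3 KO-labelled libraries. Together 10 of the 15 were called, beside 71.3% of all genes (35.1% higher and 36.2% lower). The 4 with the smallest adjusted p were EZR, DLC1, SYT1 and SUGT1. EZR, ezrin, the partner of S100P that links membrane to actin, fell from 1195 to 222 CPM in the RPL3 KO-labelled libraries (-2.43), where S100P was high. DLC1 was at 0.38 and 40.7 CPM (6.69), and SUGT1, a co-chaperone bound by S100A6, at 125 and 246 CPM (0.98). The annexin partners of S100A10 and S100A11 moved apart, ANXA2 at 626 and 1016 CPM (0.70) and ANXA1 at 392 and 222 CPM (-0.82). Of the genes that act with S100A13 in release, FGF1 was at 1.97 and 4.24 CPM (1.11) and SYT1, synaptotagmin, at 42.6 and 9.03 CPM (-2.23). These were the 2 partners whose response to Act D differed between the lines: the log2 fold change of FGF1 was -0.01 in HCT 116p53-/- cells and -2.08 in the RPL3 KO-labelled libraries (interaction adjusted p = 0.00889), and that of SYT1 was -1.64 and 0.06 (interaction adjusted p = 4.73e-05). Between the lines with Act D, FGF1 was lower in the RPL3 KO-labelled libraries (-0.96, adjusted p = 0.0192), the reverse of vehicle. SYT1 was at -0.52 there (adjusted p = 0.00213). FGF1 had 31 counts in all in the RPL3 KO-labelled libraries with Act D. With vehicle, scaling by library size alone called 5 partners lower in place of 3 and again 7 higher. With Act D 3 partners fell in HCT 116p53-/- cells, PPFIBP1, EZR and SYT1, and 1 in the RPL3 KO-labelled libraries, FGF1. Of all genes, 11.1% and 8.4% were called lower in these comparisons, and 6.53% passed the test of the interaction.

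Genes that are neighbours of the cluster but outside the family were compared in the same way. Of 12, 9 were tested, and 6 were higher and none lower in the RPL3 KO-labelled libraries with vehicle. Of all genes 35.1% were called higher and 36.2% lower in that comparison, 71.3% together. The median log2 fold change was 0.33 among the 9. CRTC2, a coactivator of CREB, was at 13.3 and 25.8 CPM (0.96) and ILF2, a double-stranded RNA-binding factor, at 347 and 485 CPM (0.48). CHTOP, which lies next to S100A13, was at 78.7 and 97.4 CPM (0.31, adjusted p = 0.00355) and fell with Act D in both lines, by 0.36 in HCT 116p53-/- cells (adjusted p = 0.00719) and by 0.56 in the RPL3 KO-labelled libraries (adjusted p = 0.000355) on the log2 scale. NPR1, a natriuretic peptide receptor, had 1 count in the 3 HCT 116p53-/- libraries with vehicle and 51 in the other line. Scaling by library size alone left 3 of the 9 called higher, with CHTOP at 0.07 (adjusted p = 0.55), while no neighbour was called lower.

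By the root mean square difference of log2 CPM over the 12 libraries, each gene centred on its mean, the genes most like S100P were RAB34 (0.23), PDGFRA (0.23) and NRIP3 (0.24). Those most like S100A14 were ALDH1A3 (0.22), UCA1 (0.23) and CYP24A1 (0.24), and those most like S100A11 were RPL27A (0.11), AP2M1 (0.12) and ARMCX3 (0.13).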

How the data were processed

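RNA-seq libraries (TruSeq, read from both ends) of 12 samples were used, and groups and replicate numbers came from the sample titles. Per the labels, the authors quantified reads on hg38 with RSEM 1.2.25, and the study's methods describe trimming and removal of ribosomal and contaminant reads beforehand. The deposited values used are RSEM expected counts, not normalized, and RSEM's TPM, which divides by effective length. RSEM divides a read that fits several genes between them, and the posterior SD of a member's count was at most 2.21 counts in the 11 libraries deposited per gene. For replicate 2 of HCT 116p53-/- cells with vehicle the deposited values were per transcript and were summed per gene.

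Expected counts were rounded, and genes were kept with filterByExpr by group, which left 15692 of 33990 with any count. A single edgeR 4.0.16 model (R 4.3.3, limma 3.58.1) held all 12 libraries, with 1 mean for each of the 4 groups, after TMM scaling, whose factors were 0.847 to 1.15, at a common dispersion of 0.0117. The quasi-likelihood test was used with Benjamini-Hochberg adjustment, at the study's FDR of 0.05. The tests were checked on simulated counts in which few genes changed, as many up as down. That check does not cover a comparison in which most genes are called, such as that between these lines. The alternatives were DESeq2 1.42.0, library size alone or upper-quartile scaling, no filter or a filter of 1 CPM in 3 libraries, the replicate block, only the groups compared, and each library left out in turn, which makes 13 for a comparison of 2 groups. Coordinates came from GENCODE v44 on hg38, where 60261 of 60617 identifiers matched, promoters from RefSeq on GRCh38.p14, and values were summarised in Python 3.11.15 with pandas 2.3.3.

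All 10 members are named, and from each other list up to 4 genes with the smallest adjusted p between the lines with vehicle plus those a result turns on. For S100P and S100A14, the largest rise and fall, and for S100A11, the largest called response to Act D, the 3 most similar genes are given. By absolute log2 fold change alone the last would have been S100A14. The members and lists were chosen with earlier results of these data known.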

Additional observations from a re-analysis of the deposited data

How the results depend on the processing

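The counts of S100 genes called between the lines stayed at 9 in each leave-one-out fit, and S100A6 was called in addition with library size alone. For Act D in HCT 116p53-/- cells the count of 3 became 1 with library size alone and ranged from 1 to 3 when each library was left out, with 1 without replicate 3 of either treatment. In the RPL3 KO-labelled libraries the count of 0 became 1 with upper-quartile scaling and with DESeq2, and ranged from 0 to 1, with 1 without replicate 2 with vehicle. The interaction stayed at 0. The cause was not tested. With the replicate number as a block, the counts were 9 between the lines with either treatment, 2 for Act D in HCT 116p53-/- cells, 0 in the RPL3 KO-labelled libraries and 0 for the interaction, and S100A10 lost its call for Act D (adjusted p = 0.0649). Same-numbered libraries of different groups correlated at -0.161 to 0.119 in their deviations from the group means, and not every library correlated best with its own number. Between vehicle and Act D in HCT 116p53-/- cells the values were 0.042, 0.119 and 0.072, and replicates 2 and 3 matched their own number best. With 3 libraries per group such correlations cannot exclude a pairing, and the main model did not use the numbers as pairs.

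Values that changed sign were all near 0 and past no threshold. For Act D they were S100A2 in HCT 116p53-/- cells (-0.067) and S100A13 in the RPL3 KO-labelled libraries (-0.081) with library size alone, S100A13 there without the filter (-0.017), and S100A4 there with upper-quartile scaling (0.037). Leaving out each library gave, for Act D in HCT 116p53-/- cells, -0.20 to 0.041 for S100A14, -0.14 to 0.014 for S100A16 and -0.017 to 0.074 for S100A2, and in the RPL3 KO-labelled libraries -0.12 to 0.090 for S100A4 and -0.035 to 0.075 for S100A13. For the interaction it gave -0.14 to 0.019 for S100A16, -0.040 to 0.17 for S100A4, -0.023 to 0.17 for S100A6 and -0.27 to 0.0075 for S100A3, and for S100A6 between the lines -0.18 to 0.016 with vehicle and -0.096 to 0.033 with Act D.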
